A study of Mus musculus with 12 samples.

Results

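The receptor chains for interleukin (IL)-7, IL-4 and IL-21 were followed in CD4+ CD25+ spleen T cells of mice with an intact or a defective IL-2 receptor. The members are the Affymetrix probe sets given for the genes Il7r (1448575_AT and 1448576_AT), Il4ra (1421034_A_AT, 1423996_A_AT and 1447858_X_AT) and Il21r (1450456_AT), so 6 of the 45101 probe sets of the table and 3 genes. The rule that lists them names genes and uses no measured value, but it was written with earlier results of these data known. Expression was measured on 12 arrays in 4 groups of 3. Fresh regulatory T (Treg) cells, suppressive T cells with high surface CD25, were sorted from spleen of normal C57BL/6 mice and of C57BL/6-2Rbeta-WT/thymus transgenic mice. Activated effector T cells came from the same kinds of mice, after unfractionated spleen cells had been cultured for 48 hours with anti-CD3, which activates T cells through their antigen receptor. The transgenic mice had been bred to IL-2Rbeta-deficient mice, and the series describes their T cells as defective in the IL-2 receptor. The transgene name refers to wild-type receptor beta and the thymus, and the labels used here name no promoter. All groups share the C57BL/6 background and sorting for CD4 and high CD25.

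Effector arrays held 1 mouse each, aged 10, 14 and 14 weeks (C57BL/6) and 15, 14 and 9 weeks (transgenic). Treg arrays held pools of 8, 8 and 15 C57BL/6 mice aged 12, 12 and 10 weeks, and pools of 4, 8 and 3 transgenic mice aged 33, 13 and 7 to 16 weeks. The series describes the samples of each group as separate biological replicates. Transgenic effector sample 3 is a cultured effector sample by title and source, but its purification label speaks of fresh spleen, so the called results that rest on it are also given without it.

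IL-7, IL-4 and IL-21 each bind a receptor chain of their own that pairs with the common gamma chain, which the IL-2 receptor uses too, and the paired chains signal through JAK kinases. The IL-7 receptor alpha chain, the product of Il7r, acts mainly through STAT5, keeps resting T cells alive, and is widely used as a surface marker that is low on Treg cells. The IL-4 receptor alpha chain (Il4ra) acts mainly through STAT6 and directs T helper 2 differentiation, and the IL-21 receptor (Il21r) acts mainly through STAT3 in follicular helper T cells, T helper 17 cells and B cells. As textbook background, IL-2 lowers Il7r and raises Il4ra in activated T cells.

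RefSeq (build GRCm38.p6) holds a promoter for each of the 3 genes, and the 250 bases before the start site used by that table are shown because Il7r and Il4ra both changed between the strains of effector cells while no change was called for Il21r. Each sequence runs 5′ to 3′ on the gene's own strand, and capitals mark matches to the motifs searched.
Il7r, chr15:9529877-9530126, minus strand: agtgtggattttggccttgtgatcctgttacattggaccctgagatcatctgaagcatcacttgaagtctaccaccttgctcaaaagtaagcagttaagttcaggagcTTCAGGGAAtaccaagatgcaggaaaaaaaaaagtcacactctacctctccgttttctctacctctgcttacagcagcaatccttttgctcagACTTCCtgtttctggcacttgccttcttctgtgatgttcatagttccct
Il4ra, chr7:125552021-125552270, plus strand: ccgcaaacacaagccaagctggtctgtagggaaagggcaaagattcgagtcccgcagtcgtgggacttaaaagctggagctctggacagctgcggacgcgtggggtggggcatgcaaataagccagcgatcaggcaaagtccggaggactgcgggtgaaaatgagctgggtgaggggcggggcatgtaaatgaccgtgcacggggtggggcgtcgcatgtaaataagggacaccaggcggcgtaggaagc
Il21r, chr7:125603179-125603428, plus strand: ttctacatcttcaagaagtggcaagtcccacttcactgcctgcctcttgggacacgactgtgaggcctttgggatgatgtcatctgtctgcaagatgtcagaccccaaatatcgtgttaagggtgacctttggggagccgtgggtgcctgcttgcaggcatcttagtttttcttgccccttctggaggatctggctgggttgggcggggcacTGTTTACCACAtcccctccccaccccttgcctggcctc

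Motifs were searched on both strands, and a match is a description of letters, not a binding site. The Il7r window held TTCNNNGAA, the letters of the gamma-activated sites that STAT factors bind, from 142 to 134 bases before the start, and 7.02% of all 32851 promoter windows of that length hold it. It also held the ETS core GGAAGT, on the opposite strand, from 49 to 44 bases before the start (19.7% of all windows). The Il21r window held the FOXO core GTAAACA (3.17% of all windows) and the RUNX core TGTGGT (14% of all windows) on the opposite strand, and these matches overlap. The wider-spaced element that STAT6 prefers, the same outer letters around 4 free bases, is in 5.85% of all windows and in none of these 3, and none of the 5 motifs is in the Il4ra window. The Il4ra window had 59.6% G or C, the Il21r window 55.6% and the Il7r window 44%. Il4ra and Il21r are neighbours on chromosome 7, on the same strand, with 0 RefSeq genes listed between them, whereas Il7r lies on chromosome 15.

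All values are deposited log2 GCRMA values, so a difference of 1 is a doubling. Probe sets were tested where at least 3 arrays reached a log2 value of 5, which 18271 did, and called changed at a Benjamini-Hochberg adjusted p under 0.05 in limma. Of the 6 members 5 were tested. The sixth, 1447858_X_AT of Il4ra, read 0.96 to 1.00 in effector cells and 2.06 to 2.07 in Treg cells. Array minima were 0.30 to 0.33 and 0.94 to 0.96, so this probe set was near the floor and gave no level for the gene. The tables used here name no other probe sets, so the pathway partners, the disrupted receptor gene and the markers of Treg cells or other cell types were not analysed here. Probe sets differ in binding strength, so levels are compared between groups and not between probe sets. Spike-in controls read 12.65, 11.63 and 10.5 on C57BL/6 Treg samples 1 to 3 and 10.5 to 10.79 on the transgenic Treg arrays, against 9.99 to 10.42 on the effector arrays. The smallest two-sided p of an exact permutation test on 3 against 3 arrays is 0.1, so limma's shared variances carry the tests.

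**Figure D1:**
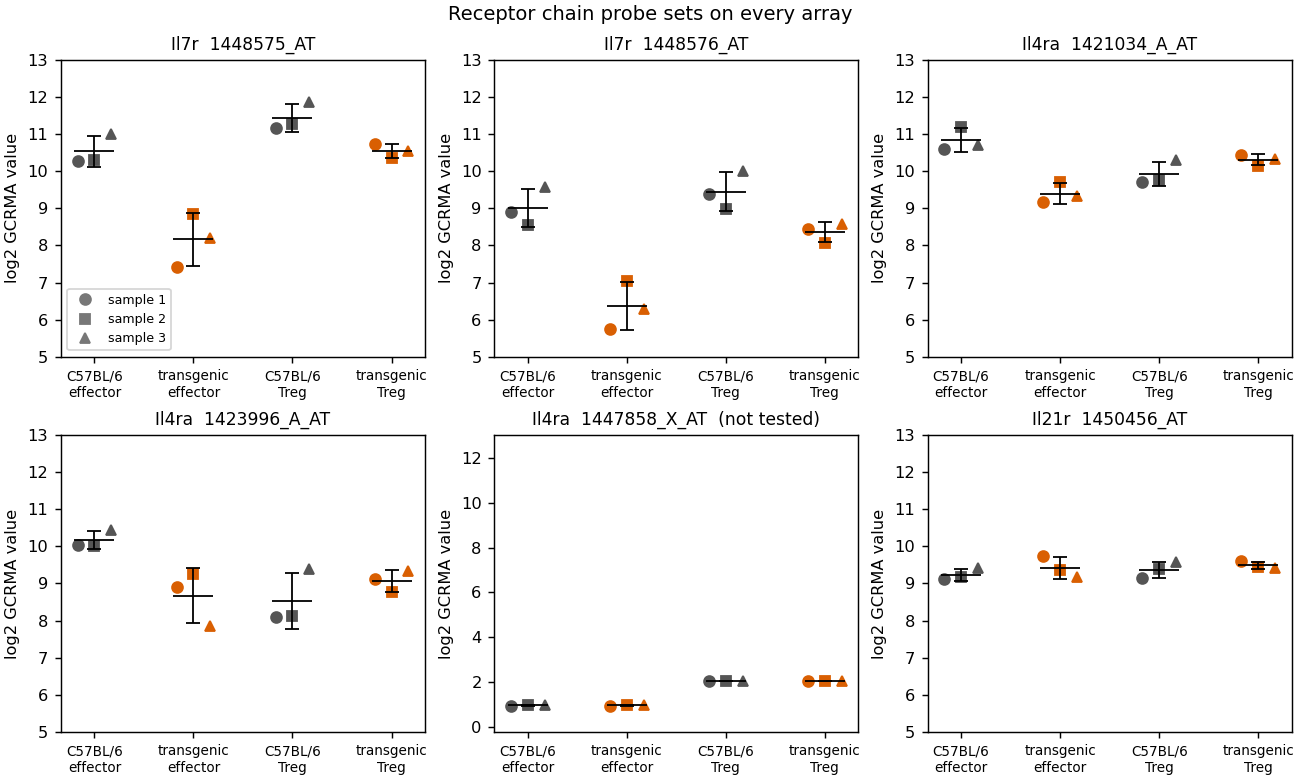
Log2 GCRMA value (y axis) of each member probe set on all 12 arrays, by group. Symbols are samples 1 to 3, the long bar is the group mean and the whiskers are 1 SD (n = 3). Both Il7r probe sets and 1421034_A_AT of Il4ra are lowest in transgenic effector cells, Il21r is level across the groups, and 1447858_X_AT, drawn on a longer axis, stays at or below 2.07.

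In activated effector cells the transcripts of both the IL-7 and the IL-4 receptor alpha chain fell in transgenic mice, Il7r by 5.17-fold and 6.26-fold on its probe sets and Il4ra by 2.72-fold on 1 of its 2 tested probe sets. The IL-21 receptor did not pass the test. Of the 5 members tested 3 were called, all lower, where 2.99% of all tested probe sets were called and 1.08% were called lower. The groups did not overlap in 4 of the 5, all of them lower, which held for 10.1% of all tested probe sets (22.8% in either direction). The median change of the 5 members was -1.50, against -0.0053 over all tested probe sets. In sorted bulk cells, fewer cells that carry a transcript and less of it per cell cannot be told apart.

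Il7r probe set 1448575_AT read 10.28, 10.31 and 11.02 on C57BL/6 effector samples 1 to 3 and 7.42, 8.86 and 8.21 on transgenic samples 1 to 3. Every transgenic array lay more than a doubling below every C57BL/6 array, with sample 1 the lowest. The means were 10.53 ± 0.42 and 8.16 ± 0.72 (SD, n = 3). The log2 change was -2.37 (SE 0.34, limma adjusted p = 0.0031). That is 5.17-fold lower, with a 95% confidence interval of 3.09-fold to 8.66-fold.

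The other Il7r probe set, 1448576_AT, read 8.90, 8.56 and 9.57 in C57BL/6 and 5.76, 7.04 and 6.28 in transgenic effector cells. The transgenic arrays stood in the same order on both probe sets, from sample 1 up to sample 2. Its log2 change was -2.65 (SE 0.37, limma adjusted p = 0.00277), or 6.26-fold lower with an interval of 3.57-fold to 11-fold. Of all tested probe sets, 0.296% had a lower change than 1448575_AT and 0.252% a lower one than 1448576_AT. Without transgenic sample 3, whose purification label differs, the changes were -2.39 and -2.61 (limma adjusted p = 0.0099 and 0.00979). In a fit to the 6 effector arrays alone, 1448576_AT was still called (limma adjusted p = 0.0473) and 1448575_AT was not (limma adjusted p = 0.0626).

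Il4ra probe set 1421034_A_AT read 10.60, 11.21 and 10.71 on C57BL/6 and 9.16, 9.70 and 9.33 on transgenic effector arrays. The groups were separate, by 0.90 between the lowest C57BL/6 and the highest transgenic array. The log2 change was -1.44 (SE 0.22, limma adjusted p = 0.00442), 2.72-fold lower with an interval of 1.95-fold to 3.80-fold. Without transgenic sample 3 it was -1.41 (limma adjusted p = 0.0147).

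The second Il4ra probe set, 1423996_A_AT, read 10.04, 10.02 and 10.44 in C57BL/6 and 8.90, 9.26 and 7.85 in transgenic effector cells. These groups did not overlap either, but the transgenic arrays were spread over 1.41, with sample 3 the lowest. Its log2 change of -1.50 was as large, yet with a standard error of 0.40 it did not pass the test (limma adjusted p = 0.0782). The change was -1.09 without transgenic sample 3 (limma adjusted p = 0.186). It was called, at the same size, when C57BL/6 Treg sample 3 was left out of the shared variance (limma adjusted p = 0.0298), and at -1.05 with array weights (limma adjusted p = 0.00985). With those weights 16.6% of all tested probe sets were called, against 2.99% as reported.

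Il21r probe set 1450456_AT read 9.13, 9.16 and 9.42 on C57BL/6 and 9.73, 9.36 and 9.16 on transgenic effector arrays. The ranges overlapped, with transgenic sample 1 above every C57BL/6 array. The log2 change was 0.18 (SE 0.18, limma adjusted p = 0.745), and its 95% confidence interval of -0.21 to 0.57 leaves out a fall of the size seen for Il7r or Il4ra. Without transgenic sample 3 the change was 0.31 (limma adjusted p = 0.514).

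In Treg cells no member passed the test between the strains, where 1.19% of all tested probe sets did. Both Il7r probe sets averaged lower in transgenic mice, by 1.87-fold and 2.14-fold, and both Il4ra probe sets averaged somewhat higher. The counts of members were 0 called at an adjusted p and 2 at an unadjusted p under 0.05, both of Il7r, where 9.38% of all tested probe sets had such a p. The groups did not overlap for these 2 of 5 members, both lower, nor for 14.8% of all tested probe sets (7.18% lower). The median over the 5 members was 0.12, against 0.028 over all tested probe sets.

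For Il7r, 1448575_AT read 11.17, 11.28 and 11.88 on C57BL/6 Treg samples 1 to 3 and 10.73, 10.35 and 10.55 on transgenic samples 1 to 3. The highest transgenic array, from the pool aged 33 weeks, lay 0.44 below the lowest C57BL/6 array. The log2 change was -0.90 (SE 0.34, unadjusted p = 0.022, limma adjusted p = 0.38). The other probe set, 1448576_AT, read 9.38, 8.98 and 10.00 against 8.45, 8.06 and 8.57. Its change was -1.09 (SE 0.37, unadjusted p = 0.0128, limma adjusted p = 0.291). Leaving out any 1 Treg array kept the sign negative for both, with changes of -1.04 to -0.68 and of -1.33 to -0.82. Leaving out an effector array cannot move these changes.

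For Il4ra in Treg cells, 1421034_A_AT read 9.70, 9.76 and 10.31 in C57BL/6 and 10.45, 10.15 and 10.32 in transgenic mice. Probe set 1423996_A_AT read 8.08, 8.11 and 9.40 against 9.12, 8.76 and 9.35. On both, C57BL/6 samples 1 and 2 lay below the transgenic arrays and C57BL/6 sample 3 lay among or above them. The changes were 0.38 with an interval of -0.099 to 0.86 and 0.55 with an interval of -0.34 to 1.43 (limma adjusted p = 0.709 and 0.807). Il21r read 9.14, 9.38 and 9.58 against 9.60, 9.45 and 9.42, with overlapping ranges and a change of 0.12 (interval -0.27 to 0.51, limma adjusted p = 0.936).

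The labels as read here give a percentage after sorting for every array except C57BL/6 Treg sample 3. This sample was the highest of its group on all 5 tested members, as it was for 44.1% of all tested probe sets, and it also had the lowest spike reading of the group. Without it the Treg changes were -0.68 and -0.82 for Il7r, 0.57 and 0.98 for Il4ra and 0.23 for Il21r, and none was called. With the spike reading as a covariate, chosen after the data were seen, they were -1.22 and -1.36 for Il7r, 0.11 and -0.022 for Il4ra, and -0.084 for Il21r, and none was called (limma adjusted p of 0.13 to 0.991). Within the 4 Treg arrays with consecutive codes from the array provider, 2 per strain, transgenic minus C57BL/6 was -0.69 and -0.93 for Il7r, 0.57 and 0.84 for Il4ra and 0.27 for Il21r. The part of the spike reading in these differences was not tested further.

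**Figure D2:**
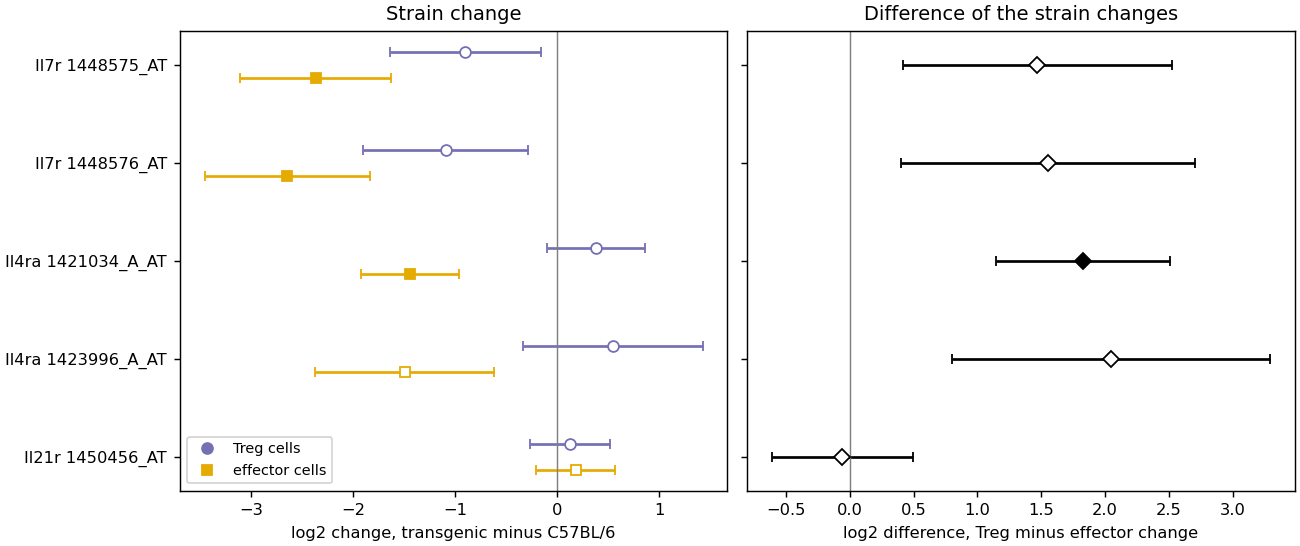
Left, log2 change from C57BL/6 to transgenic mice (x axis) of the 5 tested members in Treg cells (circles) and effector cells (squares). Right, the Treg change minus the effector change (diamonds). Bars are 95% confidence intervals from limma, and filled symbols passed an adjusted p of 0.05. Both Il7r probe sets lie left of 0 in both populations, while Il4ra lies left of 0 in effector cells only.

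The strain change of Il4ra differed between the populations. For 1421034_A_AT the Treg change exceeded the effector change by 1.83 on the log2 scale (SE 0.31, limma adjusted p = 0.0109), where 2.26% of all tested probe sets were called and 0.744% were called in this direction. It was the only member of 5 called in this comparison, and without transgenic effector sample 3 it was 1.79 (limma adjusted p = 0.0235). The difference for 1423996_A_AT was 2.04 with a standard error of 0.57 and was not called (limma adjusted p = 0.106). It was called without C57BL/6 Treg sample 3, at 2.48 (limma adjusted p = 0.0239).

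Il7r averaged lower in transgenic cells of both populations, by more in effector than in Treg cells, but that gap did not pass the test. The differences were 1.47 and 1.55 with standard errors of 0.48 and 0.52 (limma adjusted p = 0.183 and 0.199). With array weights 1448576_AT was called, at 1.67 (limma adjusted p = 0.03), and 1448575_AT was not (limma adjusted p = 0.0662). Those weights called 13.8% of all tested probe sets for this difference, against 2.26% as reported. For Il21r the difference was -0.057, with an interval of -0.61 to 0.50 (limma adjusted p = 0.955).

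**Figure D3:**
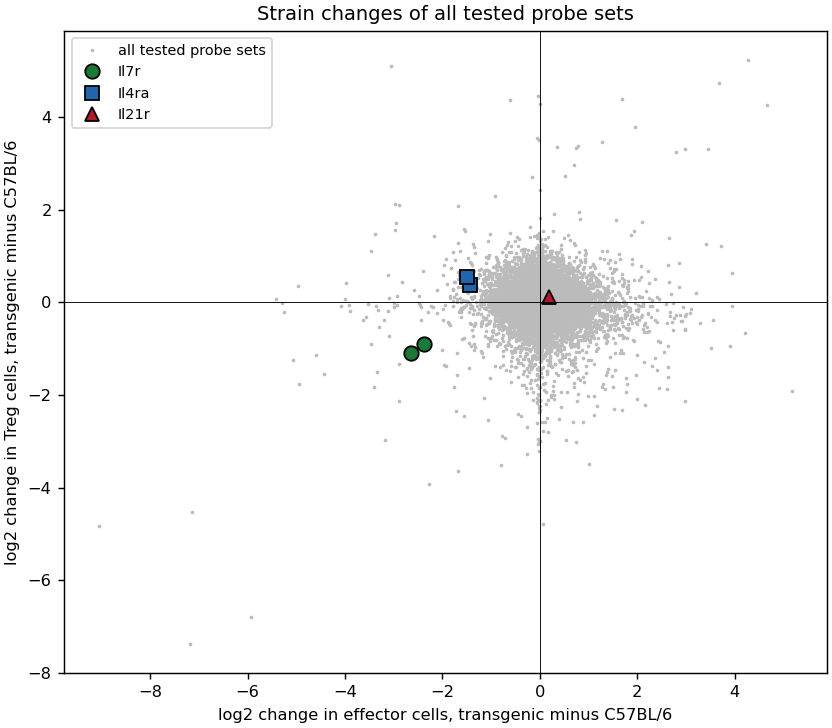
Log2 strain change in effector cells (x axis) against that in Treg cells (y axis) for all 18271 tested probe sets (grey) and for Il7r (circles), Il4ra (squares) and Il21r (triangle). The Il7r pair lies at -2.37 and -2.65 in effector cells and below 0 in Treg cells, the Il4ra pair at -1.44 and -1.50 and above 0 in Treg cells, and Il21r inside the central cloud.

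Across the 4 groups, Il7r 1448575_AT was highest in C57BL/6 Treg cells (11.44 ± 0.38), level in transgenic Treg cells (10.54 ± 0.19) and C57BL/6 effector cells (10.53 ± 0.42), and lowest in transgenic effector cells (8.16 ± 0.72, SD, n = 3 each). Only the middle neighbours overlapped. On 1448576_AT the order was C57BL/6 Treg cells (9.45), C57BL/6 effector cells (9.01), transgenic Treg cells (8.36) and transgenic effector cells (6.36), and only the last step was free of overlap. Il4ra 1421034_A_AT was highest in C57BL/6 effector cells (10.84 ± 0.32), followed by transgenic Treg (10.31 ± 0.15), C57BL/6 Treg (9.93 ± 0.34) and transgenic effector cells (9.40 ± 0.28), with overlap between the Treg groups alone. On 1423996_A_AT the C57BL/6 effector cells (10.17 ± 0.24) also lay above all other arrays, and the other 3 groups (8.53 to 9.08) overlapped. Il21r means spanned 9.24 to 9.49, and all neighbouring groups overlapped.

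Levels of the populations come from fresh pooled and cultured single-mouse samples whose provider codes fall in separate number ranges, which cannot be told apart from cell type. The near-floor probe set 1447858_X_AT differed by 1.09 between populations in C57BL/6 mice when all probe sets were tested (limma adjusted p = 1.78e-13), so the populations also differ at the bottom of the scale. Over all tested probe sets the median Treg minus effector difference was -0.26 in C57BL/6 and -0.21 in transgenic mice, and each called difference is also given relative to that median.

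In C57BL/6 mice, Treg cells held more Il7r on 1448575_AT, by 0.91 (limma adjusted p = 0.0297; 1.17 relative to the median), and less Il4ra on 1421034_A_AT and 1423996_A_AT, by -0.91 and -1.64 (limma adjusted p = 0.0027 and 0.00308; -0.66 and -1.38 relative to the median). So 3 of 5 members were called, 1 higher and 2 lower, against 73.8% of all tested probe sets (31.7% higher and 42.0% lower), and the groups of 3 members did not overlap, against 76.7%. The share of members is no larger than the background. The Il7r call was lost without C57BL/6 effector sample 1, C57BL/6 effector sample 2 or C57BL/6 Treg sample 3 (limma adjusted p = 0.0971, 0.0906 and 0.108), and that of 1421034_A_AT with quantile normalization (-0.25, limma adjusted p = 0.334). The other Il7r probe set differed by 0.45 (limma adjusted p = 0.292), and Il21r by 0.13 (limma adjusted p = 0.533), and it passed the test at 0.44 once each array was centred on its own median (limma adjusted p = 0.0272) and at 0.64 with quantile normalization (limma adjusted p = 0.00483).

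In transgenic mice Treg cells held more Il7r than effector cells on both probe sets, by 2.38 and 2.00 (limma adjusted p = 6.82e-05 and 0.000502), which is 5.21-fold and 4.00-fold (2.59 and 2.21 relative to the median). They also held more Il4ra on 1421034_A_AT, by 0.91 (limma adjusted p = 0.00295; 1.12 relative to the median), the opposite direction to C57BL/6 mice. Again 3 of 5 members were called, all higher, against 70.0% of all tested probe sets (30.0% higher). These 3 did not overlap, against 73.9% (31.8% higher). Without transgenic effector sample 3 they were 2.40, 1.96 and 0.88 and still called (limma adjusted p = 0.000315, 0.0021 and 0.00954). Over all tested probe sets 5488 were called higher and 7301 lower, and 6614 and 5796 once each array was centred on its own median. Il4ra 1423996_A_AT differed by 0.40 and Il21r by 0.069 (limma adjusted p = 0.388 and 0.744). Without transgenic effector sample 3 these differences were -0.0066 and -0.058, and with quantile normalization Il21r was called, at 0.59 (limma adjusted p = 0.00852). The transgenic population and strain comparisons share their arrays, so they are not separate evidence.

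The Il7r pair tracked each other closely. After each population's mean was subtracted, 1448576_AT had the highest correlation with 1448575_AT of all 18270 other tested probe sets (Pearson r = 0.99 over 12 arrays). Next was 1420425_AT (r = 0.95), which the tables used here do not name. For the Il4ra pair, 1423996_A_AT ranked 64 by likeness to 1421034_A_AT (r = 0.85), and the closest was the unnamed 1448957_AT (r = 0.96). Il4ra 1421034_A_AT ranked 120 by likeness to Il7r 1448575_AT (r = 0.78), and Il21r ranked 14775 (r = -0.36). The probe set most like Il21r was the unnamed 1428699_AT (r = 0.95). Subtracting population means leaves the strain changes in these values. On plain log2 values, 1421034_A_AT ranked 3087 by likeness to 1448575_AT (r = 0.59) and Il21r ranked 8393 (r = -0.10). These arrays share strain groups, and whether they share a normalization is not known, so the correlations are descriptions only.

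**Figure D4:**
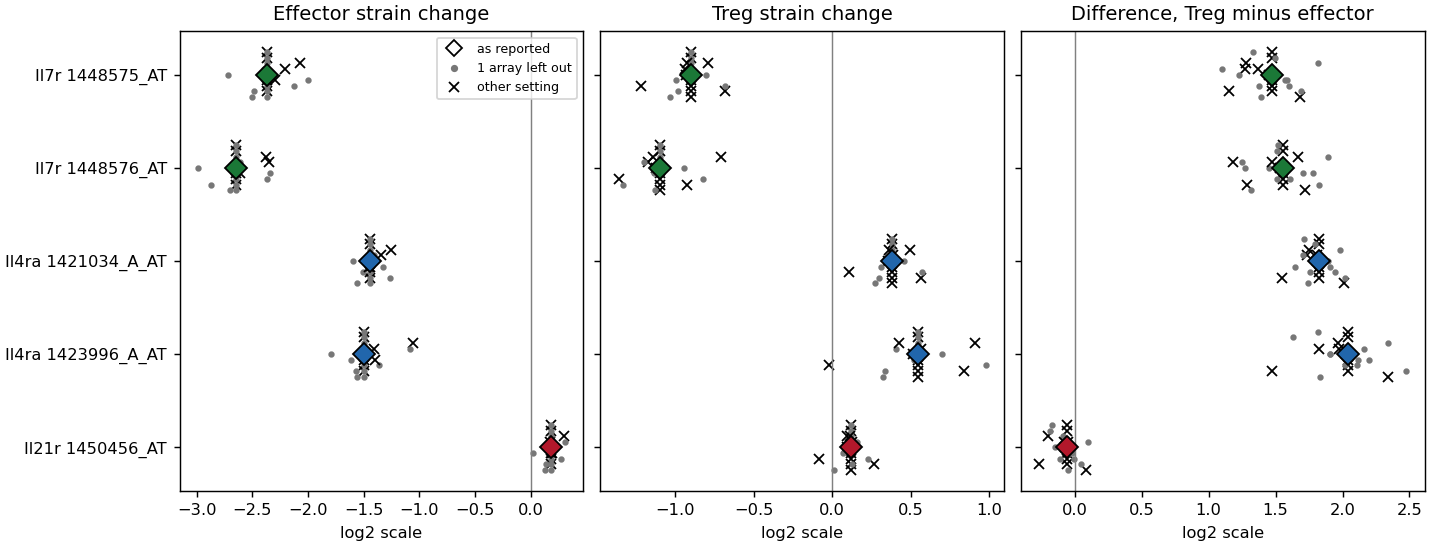
Log2 strain change in effector cells, in Treg cells, and their difference (x axes) for the 5 tested members under each setting. Diamonds are the values as reported, dots leave out 1 array, and crosses are other settings. The effector changes of Il4ra stay between -1.79 and -1.05 and those of Il7r lie below them, while the Treg values of 1423996_A_AT reach from -0.022 to 0.98.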

How the data were processed

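The authors deposited log2 values for 12 arrays, made with GCRMA per the submitters' processing notes (no version stated there). Per the labels' protocols, 1 round of in vitro transcription amplified the RNA. No source used here states whether both populations were normalized together. Array minima were 0.30 to 0.33 in effector cells and 0.94 to 0.96 in Treg cells. The 99th percentiles were 13.48 to 13.55 and 12.9 to 12.98. The part of processing in the population differences was not tested. The 64 control probe sets were left out. With limma 3.58.1 (R 4.3.3, eBayes with trend), all 12 arrays entered 1 fit of the 4 group means over 18271 probe sets with at least 3 arrays at a log2 value of 5, and p-values were adjusted over all of them. The fit was run on simulated data with independent noise on each array. Deviations shared between arrays were not simulated, so that run does not cover them. The number of arrays limits the precision.

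All 6 members are named. The rules for other named genes and gene lists need gene symbols, which the tables used here do not give, so likeness was read over all probe sets. The members and lists were chosen with earlier results of these data known. Same-numbered Treg arrays deviated together for samples 1 and 3 (r = 0.583 and 0.511). For sample 2 r was 0.102, no higher than for C57BL/6 sample 3 with transgenic sample 2 (0.114). Effector arrays of the same number did not deviate together (0.211, -0.338 and -0.342). Across numbers, r was 0.404 for C57BL/6 effector sample 2 with transgenic sample 3. For C57BL/6 effector sample 3 with transgenic sample 2 it was 0.418. Any pairing is thus read from the data, not the labels. The fit as reported used none, and a block by replicate number was an alternative only. Numbers come from the titles, and 2 effector arrays, C57BL/6 sample 3 and transgenic sample 2, carry number 1 in their descriptions, so effector numbers, and the replicate block that uses them, are in doubt. Promoters were searched in Python 3.11.15, and figures drawn with matplotlib 3.10.9. Alternatives changed the filter, variance model, normalization, array weights, arrays fitted, blocks and test, and left out each array.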

Additional observations from a re-analysis of the deposited data

Results flagged for a closer look

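The strain change of Il4ra on 1421034_A_AT differed between Treg and effector cells by the test of that difference, 1.83 on the log2 scale (SE 0.309, limma adjusted p = 0.0109). The change was 0.38 in Treg cells and -1.44 in effector cells. Over the 12 fits that left out 1 array the difference ran from 1.64 to 2.02 (limma adjusted p of 0.00531 to 0.0411), and over the other settings from 1.55 to 2.01 (limma adjusted p of 0.00143 to 0.0312 where tested). Without transgenic effector sample 3, whose purification label differs, it was 1.79 (limma adjusted p = 0.0235). Groups of 3 arrays are too small for the check on single arrays that stand apart.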

How the results depend on the processing

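Of 550 alternative values of members' changes, 519 kept direction and side of the threshold, 15 gained a call, 8 lost one and 8, none called, changed sign. Many could not change sign, as their fits left the compared means unchanged. With array weights 1 member was called in Treg cells (1423996_A_AT, 0.91, also called in effector cells at -1.05) and 3 for the difference of the strain changes (1423996_A_AT at 1.96 and 1448576_AT at 1.67 added). The transgenic population difference of Il21r was -0.0115. By mean intensities at least 2-fold apart, untested, 1 member passed in Treg cells (1448576_AT, -1.14) and 4 in effector cells (1423996_A_AT added, at -1.40). For the difference 4 passed (1423996_A_AT at 1.82, 1448575_AT at 1.37 and 1448576_AT at 1.47 added). Of all tested probe sets 2.66%, 4.97% and 9.61% passed. Between C57BL/6 populations 1 passed, against 57.2%, since 1421034_A_AT (-0.91) and 1448575_AT (0.90) stayed under 2-fold, as 1421034_A_AT did in transgenic mice (0.90). With the effector arrays alone 1448575_AT was not called (-2.37). Quantile normalization ended the C57BL/6 population call of 1421034_A_AT (-0.25) and added 1448576_AT (0.95) and Il21r (0.64), and Il21r in transgenic mice (0.59). Centring added Il21r (0.44). With the spike covariate, added after the data were seen, the Treg changes of 1423996_A_AT and Il21r were -0.0223 and -0.0835. With consecutive provider codes as a block, which the labels do not name, the Il21r difference was 0.0851. The cause was not tested.

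Leaving out 1 array, members called ran from 2 to 3 between C57BL/6 populations, 3 to 4 in effector cells and 1 to 2 for the difference. Of all 18271 tested probe sets 12519 to 13909, 266 to 628 and 214 to 433 were called. The ranges were 0.69 to 1.15 for the C57BL/6 population difference of 1448575_AT, -1.79 to -1.09 for the effector change of 1423996_A_AT and 1.63 to 2.48 for its difference. Between transgenic populations they were -0.00658 to 0.70 for 1423996_A_AT and -0.0582 to 0.23 for Il21r, both lowest without transgenic effector sample 3. The Il21r difference ran from -0.19 to 0.10 (0.10 without transgenic effector sample 1 and 0.05 without C57BL/6 Treg sample 3).

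The replicate block, which matched effector arrays by title number only, changed no member's call. Over all tested probe sets it called 184 in Treg and 522 in effector cells, against 218 and 547. With the block in the Treg arrays only, added later, 354 were called there.

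Over all probe sets, calls in Treg cells were 1232 with array weights, 565 with the spike covariate, 486 by the ratio, 135 with the filter at log2 7, 74 with the Treg arrays alone, and 135 or 141 without C57BL/6 sample 2 or transgenic sample 1. In effector cells they were 3033, 908 by the ratio, 347 without a filter, 223 alone, and 295, 266 or 355 without C57BL/6 sample 1 or 2 or transgenic sample 2. For the difference, 413 became 2529 with weights, 1756 by the ratio, and 214 to 261 without C57BL/6 Treg sample 2, transgenic Treg sample 1 or 3, or C57BL/6 effector sample 1 or 2. Without a filter the population calls rose from 13475 to 31870 in C57BL/6 and from 12789 to 31397 in transgenic mice.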
